A study of Mus musculus with 42 samples.

Results

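The response of proximal colon Gli1+ stromal cells to loss of Alk3 was described across genes in 4 of the series' 42 libraries, chosen by their sample labels. Alk3 is the protein encoded by Bmpr1a, a type I receptor for bone morphogenetic proteins (BMPs). The control mice carried Gli1-CreERT2 and a Rosa26 tdTomato reporter (GWTT), and the knockout mice carried the same alleles with floxed Alk3 (GA3T, Alk3 fl/fl), with 2 libraries in each group. All mice had received daily injections of 100 µl tamoxifen at 20 mg/ml and were analysed on day 30, tdTomato+ cells were sorted from the proximal colon, and mice of both sexes, 2 to 4 months old, were used. The strain background and the number of mice behind a library are not given in the sources used here. Values of other libraries, with the same tamoxifen doses and day, are set beside these. They came from distal GWTT and GA3T cells and from proximal tdTomato+ cells with floxed Smad4 (GS4T, Smad4 fl/fl). Others came from proximal Muc2-mCherry cells of Gli1-CreERT2 mice without (GWTM2) or with floxed Alk3 (GA3M2).

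Gli1-CreERT2 marks, and recombines in, any cell that expresses the Hedgehog target Gli1 when tamoxifen is given, as well as the later progeny of such a cell, so both groups hold a mixture of mesenchymal cells, and the allele is also lost in Gli1+ cells outside the colon. BMP ligands bind type I and type II receptors, the receptors phosphorylate Smad1, Smad5 and Smad9, and these enter the nucleus with Smad4 to drive targets such as the Id genes. In the colon, fibroblasts just beneath the epithelium (telocytes, marked by Foxl1) are a major source of BMP and noncanonical Wnt ligands, whereas fibroblasts deeper in the wall supply BMP antagonists and R-spondins to the crypt base.

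The values were normalized counts per gene. Of 15973 genes in the table, 15346 had a mean of at least 10 and were tested with limma on log2(value + 1), and fold changes are on that scale. The mean was over both groups, so a gene with a control mean below 10 could pass through the knockout libraries alone and then only lie higher. Genes with a Benjamini-Hochberg adjusted p below 0.05 and a log2 fold change of at least 1 in size were called, and "rose" and "fell" are used only for such genes. In this table limma called 55 genes, 0.358% of those tested, of which 53 rose (0.345%) and 2 fell (0.013%). On whole reads recovered from the same values, DESeq2 called 969 genes (6.31%), 676 higher (4.41%) and 293 lower (1.91%), whereas edgeR's quasi-likelihood test called 0, with 1453 genes at an unadjusted p under 0.05 and a lowest adjusted p of 0.0605, so it called 0 of every gene list below. Counts at an unadjusted p below keep the threshold of 0.05 and that on the fold, except for the segment interaction, which had no fold threshold. Of all 15346 genes tested, 1451 (931 higher and 520 lower) passed that cut with limma. All 55 limma calls were also DESeq2 calls in the same direction. With 2 libraries against 2, an exact permutation test of a single gene cannot go below p = 0.33.

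Several libraries stood apart. Replicate 1 of each proximal group carried Y-linked transcripts and almost no Xist and replicate 2 carried Xist, so sex was balanced between the groups. Recovered depth was 16182827 to 21221080 reads. GWTT replicate 1 held far fewer epithelial transcripts than the other libraries, and GA3T replicate 2 had the lowest Gli1 and deep fibroblast transcripts. Without GWTT replicate 1 limma called 0 genes (1421 when the p was left unadjusted), and without GA3T replicate 2 it called 1 (749), and neither set held any of the 55. Without GA3T replicate 1 it called 234 genes, 118 of them higher, and 42 of the 55 were among them. Without GWTT replicate 2 it called 112, 110 of them higher, and 16 of the 55 were among them. Of the 53 genes that rose, 50 also had a positive fold change in the distal colon, where the median log2 fold change of all genes tested was 0.01. The distal libraries came from other samples, but whether these came from other mice is not stated in the sources.

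**Figure D1:**
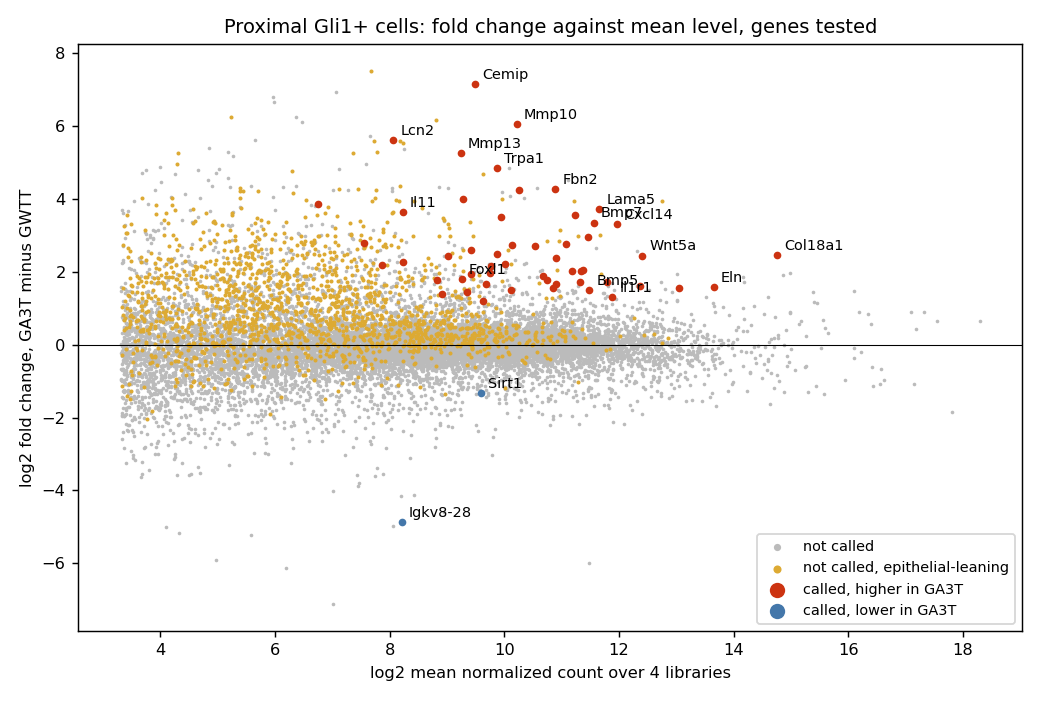
Log2 fold change (GA3T minus GWTT, vertical axis) against the log2 mean normalized count over the 4 proximal libraries (horizontal axis) for the 15346 genes tested. Red points are the 53 genes that rose and blue points the 2 that fell, and the yellow epithelial-leaning genes lie mostly above the line at 0, with a median of 0.71.

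The sorted cells were mesenchymal by their transcripts although the tissue field of the labels reads intestinal epithelium. Pdgfra, a pan-fibroblast receptor, was at 17824 and 16123 in the GWTT libraries and 28477 and 32536 in the GA3T libraries. The 12 pan-fibroblast markers summed to 973730 and 852336 normalized counts in GWTT and 1234480 and 1192340 in GA3T. The 25 epithelial markers summed to 689 to 31033. All members of both lists passed the filter, so passing it does not separate cell types. The recombined gene was checked first. Bmpr1a (chr14:34410734-34503341, minus strand, mm10) was at 2960.0 and 3220.2 in the GWTT libraries and 2233 and 1842 in the GA3T libraries. Both GA3T libraries lay below both GWTT libraries, but the log2 fold change of -0.61 ± 0.14 (SE) was short of the fold threshold, with a limma adjusted p of 0.120 and a DESeq2 adjusted p of 0.012. A count over the whole gene does not separate transcripts that lack a floxed part from intact ones.

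Gli1 itself (chr10:127329882-127341974, minus strand), the driver of the Cre, was at 676 and 1679.6 in the GWTT libraries and 1292 and 34.7 in the GA3T libraries. The low value belonged to GA3T replicate 2 alone and the groups overlapped (log2 fold change -2.31 ± 1.71, limma adjusted p = 0.477), and without that library the log2 fold change was 0.28. Ptch1, a Hedgehog receptor and target, was at 6807 and 11639 in the GWTT libraries and 8496 and 7555 in the GA3T libraries, also with overlap. Of 14 Hedgehog pathway genes tested, limma and DESeq2 each called 1 higher (Foxl1) and 0 lower.

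Genes encoding BMP ligands lay mostly higher in the knockout cells, whereas target genes of the pathway lay mostly lower. Of 11 ligand genes tested, limma called 3 higher and 0 lower and DESeq2 5 higher and 0 lower, and the median log2 fold change was 0.88 beside 0.01 for all genes tested. Bmp7 (chr2:172868012-172940321, minus strand), a ligand of the subepithelial fibroblasts, was at 577 and 490.2 in the GWTT libraries and 4626 and 6352 in the GA3T libraries. Both knockout libraries were far above both controls, and Bmp7 rose by 3.35 ± 0.19 (limma adjusted p = 0.0348). Bmp5, a closely related ligand of the same cells, was at 1534 and 1454 in the GWTT libraries and 4074 and 4382 in the GA3T libraries. The groups were well separated and the replicates close together, with a rise of 1.5 ± 0.11 (limma adjusted p = 0.0489). Bmp3, an atypical ligand that antagonises BMP signalling, was at 435 and 694 in the GWTT libraries and 3439 and 4104 in the GA3T libraries. Its lowest knockout library exceeded its highest control, and it rose by 2.77 ± 0.25 (limma adjusted p = 0.0496).

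The remaining ligands did not pass limma. Gdf11 was at 127 and 153 in the GWTT libraries and 277 and 384 in the GA3T libraries and was called higher by DESeq2 (adjusted p = 0.0047) but not by limma (0.104). Bmp8b was at 0 in both GWTT libraries and at 14 and 64.5 in the GA3T libraries, and was also called higher by DESeq2 and not by limma or edgeR. It passed the filter only through the GA3T libraries, so it could only lie higher and adds no support to the list's counts. Bmp4, the main ligand of fibroblasts in the gut wall, was at 8546 and 8545 in the GWTT libraries and 10057 and 10311 in the GA3T libraries, a log2 fold change of 0.25 ± 0.12 (limma adjusted p = 0.308). Its knockout libraries were only slightly above its controls. Gdf10 was lower in both knockout libraries, at 1569.8 and 2169 in the GWTT libraries and 1108 and 386 in the GA3T libraries, without passing any of the tests. The ligand median was 1.04 without GWTT replicate 1 and 0.774 without GA3T replicate 2, the latter over the 10 ligands then tested.

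Of 11 BMP target genes tested, 9 lay lower in both knockout libraries than in both controls, 1 lay higher and 1 overlapped, and the share of all genes tested that lay lower in this way was 27.5%. limma called 0 (5 at an unadjusted p, all lower), DESeq2 called 4 lower, and the median log2 fold change was -0.90. Id2, an inhibitor of basic helix-loop-helix factors and a direct Smad target, was at 2097 and 1563 in the GWTT libraries and 731 and 556 in the GA3T libraries. The controls were well above the knockout libraries, with a log2 fold change of -1.5 ± 0.21, a limma adjusted p of 0.0726 and a DESeq2 adjusted p of 6.38e-07. Id3 was at 5674 and 4841 in the GWTT libraries and 2509 and 1801 in the GA3T libraries (-1.30 ± 0.20, limma adjusted p = 0.0735).

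Id4 was at 337 and 424 in the GWTT libraries and 116 and 82.7 in the GA3T libraries, and its log2 fold change of -1.94 ± 0.27 was the most negative of the 11 (limma adjusted p = 0.0704). Bambi, a decoy receptor induced by BMP, was at 552 and 399.7 in the GWTT libraries and 200.4 and 174 in the GA3T libraries (-1.32 ± 0.22, limma adjusted p = 0.0834). For Id2, Id3, Id4 and Bambi every knockout library was below every control, and DESeq2 called all 4 lower. Id1 was the target whose groups overlapped, at 329.6 and 435 in the GWTT libraries and 314 and 355 in the GA3T libraries, and it was more abundant in sorted Muc2-mCherry epithelial cells of control mice than in GWTT cells. Smad6, an inhibitory Smad, went the other way, at 429.7 and 428 in the GWTT libraries and 559 and 576 in the GA3T libraries, with a limma adjusted p of 0.181. The target median was -0.904 without GWTT replicate 1 and -1.02 without GA3T replicate 2.

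The promoters of Id2 and Id4 are shown because their transcripts were the targets with the lowest limma adjusted p. Each run is the 250 bases before the RefSeq transcript start on GRCm38.p6, written 5′ to 3′ on the strand of the gene (Id2 chr12:25096093-25096342, minus strand, and Id4 chr13:48260866-48261115, plus strand). Capitals mark GGCGCC, a GC-rich element that BMP-activated Smads can bind, searched on both strands.
Id2: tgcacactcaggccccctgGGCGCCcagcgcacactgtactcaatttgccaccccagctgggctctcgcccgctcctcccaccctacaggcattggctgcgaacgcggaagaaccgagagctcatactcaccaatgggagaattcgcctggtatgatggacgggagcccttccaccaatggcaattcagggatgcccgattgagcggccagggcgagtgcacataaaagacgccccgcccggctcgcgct
Id4: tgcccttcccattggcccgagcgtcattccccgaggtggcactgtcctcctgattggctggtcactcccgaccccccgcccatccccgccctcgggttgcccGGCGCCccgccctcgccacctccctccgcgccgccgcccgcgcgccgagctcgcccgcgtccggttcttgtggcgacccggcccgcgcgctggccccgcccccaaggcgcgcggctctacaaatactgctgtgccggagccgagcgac
The element began 231 bases before the start in Id2 and 148 bases before it in Id4. It was present in 9.59% of all 32851 RefSeq promoters cut to the same length, so a match is a description of the sequence only.

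Receptors and intracellular transducers gave few calls. Of 15 genes tested limma called 0 (2 at an unadjusted p) and DESeq2 called 2 lower, and the median was -0.0034 (-0.05 without GWTT replicate 2 and 0.04 without GA3T replicate 1). Acvr2a, a type II receptor for BMPs and activins, was at 981 and 1045 in the GWTT libraries and 483 and 426 in the GA3T libraries. The controls were about level with each other and both knockout libraries were below them (-1.16 ± 0.13, limma adjusted p = 0.0615, DESeq2 adjusted p = 1.53e-07). The co-receptor Rgmb was at 4158 and 4549.7 in the GWTT libraries and 2402 and 1129.9 in the GA3T libraries and was called lower by DESeq2 (adjusted p = 0.00656, limma 0.139). Smad4 was at 1687 and 1759 in the GWTT libraries and 1571 and 1864 in the GA3T libraries, with overlapping groups and a log2 fold change of -0.01 ± 0.13.

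Secreted antagonists went in both directions. Of 12 tested, limma called 0 (3 at an unadjusted p) and DESeq2 called 1 higher and 2 lower. Chrdl2, which encodes a chordin-like BMP binding protein, was at 16.3 and 30.2 in the GWTT libraries and 293 and 712 in the GA3T libraries, and its log2 fold change of 4.30 ± 0.55 had a limma adjusted p of 0.0682 and a DESeq2 adjusted p of 8.08e-12. Grem1, the gremlin of the deep fibroblasts, was at 16342 and 16372 in the GWTT libraries and 11784 and 11359 in the GA3T libraries. Its knockout libraries were below its controls, but by less than the fold threshold (-0.50 ± 0.14, limma adjusted p = 0.155).

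**Figure D2:**
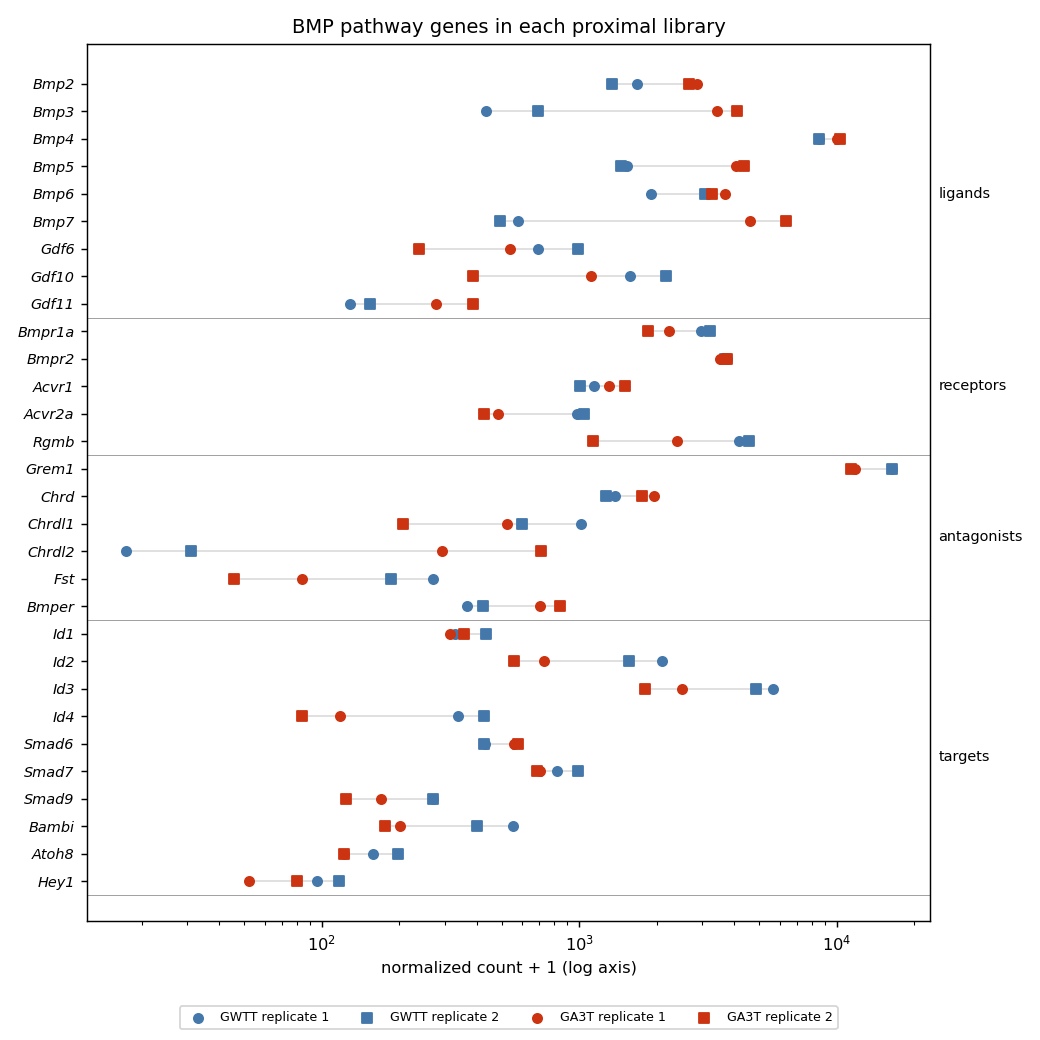
Normalized count + 1 (log axis) of BMP ligand, receptor, antagonist and target genes in each proximal library, with GWTT in blue, GA3T in red, circles for replicate 1 and squares for replicate 2. Bmp3, Bmp5 and Bmp7 sit with both red points to the right of both blue points, and Id2, Id3, Id4 and Bambi with both red points to the left.

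Among markers of subepithelial fibroblasts 6 rose, whereas markers of deep fibroblasts lay mostly lower without passing limma. Of 12 subepithelial (telocyte) markers tested, limma called 6 higher and 0 lower, DESeq2 called 8 higher and 0 lower, and the median log2 fold change was 1.65. The 6 were Bmp5 and Bmp7 with Foxl1, Wnt5a, Cxcl14 and Nrg1. Foxl1 (chr8:121127940-121130644, plus strand), the transcription factor that defines telocytes, was at 261 and 280.1 in the GWTT libraries and 879 and 1022 in the GA3T libraries. Both knockout libraries were more than 3 times above both controls, a rise of 1.81 ± 0.15 (limma adjusted p = 0.0489). Wnt5a (chr14:28504750-28527448, plus strand), a noncanonical Wnt ligand, was at 1469.7 and 1852 in the GWTT libraries and 7684 and 10578 in the GA3T libraries and rose by 2.45 ± 0.21 (limma adjusted p = 0.0489).

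The chemokine gene Cxcl14 was at 581 and 909 in the GWTT libraries and 6237 and 8316 in the GA3T libraries and rose by 3.31 ± 0.26 (limma adjusted p = 0.0489). Nrg1, an EGF family ligand that acts on crypt cells, was at 426 and 310.3 in the GWTT libraries and 3257 and 5626 in the GA3T libraries and rose by 3.55 ± 0.31 (limma adjusted p = 0.0489). In both genes the groups were apart by far more than the replicates within a group. Sox6 (417 and 391 in the GWTT libraries and 1314 and 1999 in the GA3T libraries) and the Notch ligand gene Dll1 (166 and 247 in the GWTT libraries and 376 and 484 in the GA3T libraries) were called higher by DESeq2 and not by limma, with limma adjusted p-values of 0.0597 and 0.131. Tslp, an alarmin, was the list's member with both knockout libraries below both controls, at 141 and 153 in the GWTT libraries and 81.2 and 57.0 in the GA3T libraries (limma adjusted p = 0.154). Summed over the 12 markers the libraries held 7869 and 8897 normalized counts in GWTT and 32252 and 42760 in GA3T. limma called 0 of the list without GWTT replicate 1, 0 without GA3T replicate 2, 2 without GWTT replicate 2 and 7 without GA3T replicate 1, while the median stayed between 1.57 and 1.73.

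Of 13 deep fibroblast markers limma called 0 (4 at an unadjusted p) and DESeq2 called 1 lower. Of these markers 11 lay lower in both knockout libraries than in both controls (27.5% of all genes tested did), and the median was -0.99. Cd34, a marker of adventitial fibroblasts, was at 16246 and 18229 in the GWTT libraries and 10597 and 3867 in the GA3T libraries (-1.43 ± 0.48, limma adjusted p = 0.197). Clec3b was at 28577 and 24395 in the GWTT libraries and 17723 and 6652 in the GA3T libraries (-1.28 ± 0.48, limma adjusted p = 0.221). In both, GA3T replicate 2 was well below GA3T replicate 1. Dpp4, a marker of fibroblast progenitors, was at 384 and 594 in the GWTT libraries and 240.5 and 83.5 in the GA3T libraries and was the DESeq2 call (adjusted p = 0.0411). The list's median was -0.473 without GA3T replicate 2 and -1.62 without GA3T replicate 1, so its size rested on GA3T replicate 2. In bulk RNA a smaller share of cells of a type and less RNA per cell cannot be told apart.

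**Figure D3:**
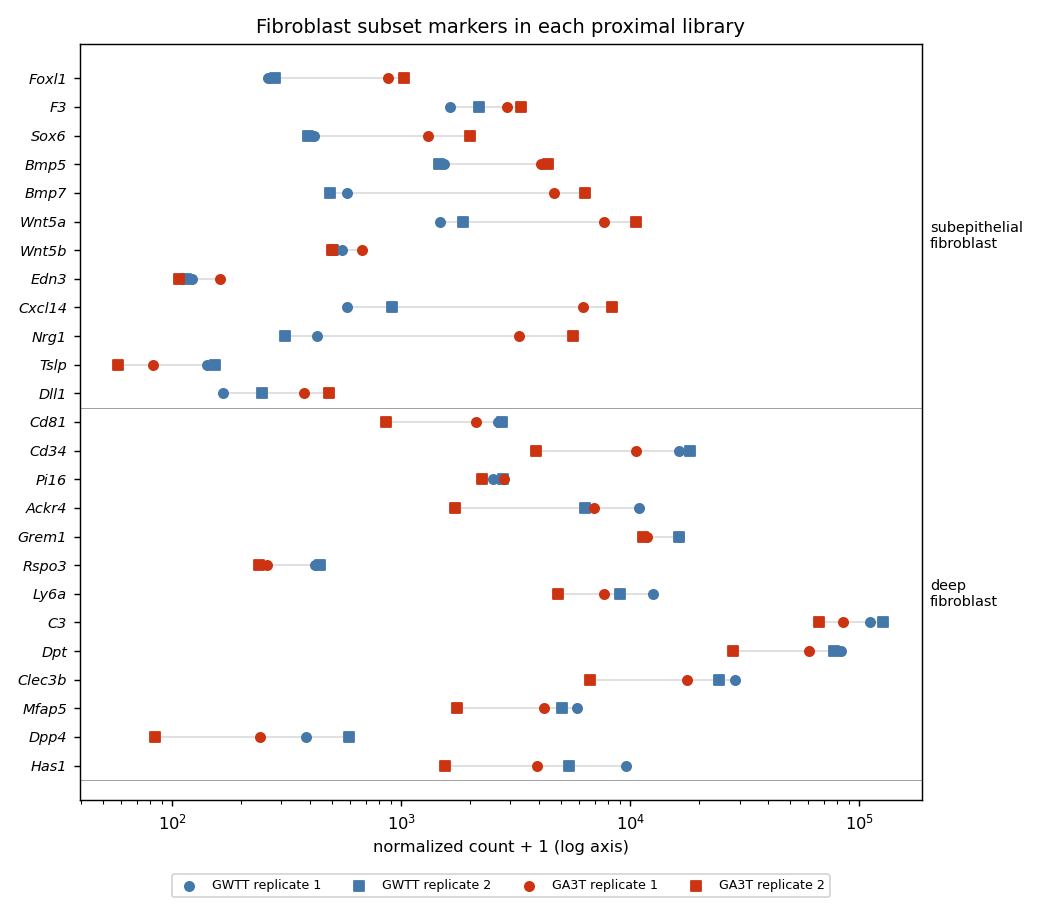
Normalized count + 1 (log axis) of 12 subepithelial and 13 deep fibroblast markers in each proximal library, with GWTT in blue, GA3T in red, circles for replicate 1 and squares for replicate 2. Foxl1, Wnt5a, Cxcl14 and Nrg1 show both red points to the right, and the red square (GA3T replicate 2) is the leftmost point of Cd34, Clec3b and Dpp4.

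Smooth muscle and myofibroblast transcripts were called by DESeq2 and not by limma. Of 13 tested limma called 0 (6 at an unadjusted p) and DESeq2 called 6 higher and 0 lower, with a median of 0.57 (0.94 without GWTT replicate 1). Acta2, the actin of contractile cells, was at 3406 and 2825 in the GWTT libraries and 8122 and 12722 in the GA3T libraries (1.71 ± 0.25, limma adjusted p = 0.0728). Mylk, the kinase of myosin light chain, was at 2059 and 1687 in the GWTT libraries and 4404 and 5596 in the GA3T libraries (1.41 ± 0.17, limma adjusted p = 0.0664). Des and Cnn1, markers of mature muscle, were at 593 and 488 in the GWTT libraries and 398 and 426 in the GA3T libraries and at 339 and 138 in the GWTT libraries and 210.4 and 390.1 in the GA3T libraries. The knockout libraries were thus above the controls for Acta2 and Mylk, below them for Des and overlapping for Cnn1.

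Cemip (chr7:83932857-84086502, minus strand), which encodes a hyaluronan-binding protein needed for hyaluronan depolymerisation, was at 5.44 and 14 in the GWTT libraries and 1107 and 1764 in the GA3T libraries. It was low in the controls and rose by 7.15 ± 0.51 (limma adjusted p = 0.0489), the largest increase among the called genes. Its control mean was below the filter of 10, so it passed only through the GA3T libraries and could only lie higher. The stromelysin gene Mmp10 (chr9:7502352-7510240, plus strand) was at 30.5 and 32.3 in the GWTT libraries and 1421 and 3273 in the GA3T libraries and rose by 6.06 ± 0.42 (limma adjusted p = 0.0489). The collagenase gene Mmp13 (chr9:7272514-7283331, plus strand), in the same gene cluster, was at 26.1 and 28.0 in the GWTT libraries and 698 and 1666 in the GA3T libraries and rose by 5.27 ± 0.45 (limma adjusted p = 0.0489). For all 3 genes both knockout libraries were far above both controls, and GA3T replicate 2 was the higher of the knockout libraries.

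The promoters of these 3 genes are shown because they had the largest increases of matrix genes (Mmp10 chr9:7502092-7502341, Mmp13 chr9:7272264-7272513, both plus strand, and Cemip chr7:84086506-84086755, minus strand, 250 bases before the RefSeq start on GRCm38.p6). Capitals mark TGANTCA, the binding motif of AP-1 factors, TATAAA, the core of the TATA box, and GGCGCC, each searched on both strands.
Mmp10: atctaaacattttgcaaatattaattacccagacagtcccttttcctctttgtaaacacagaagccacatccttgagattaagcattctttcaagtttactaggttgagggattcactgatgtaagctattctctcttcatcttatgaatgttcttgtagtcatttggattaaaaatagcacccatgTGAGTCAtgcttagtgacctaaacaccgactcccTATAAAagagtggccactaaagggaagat
Mmp13: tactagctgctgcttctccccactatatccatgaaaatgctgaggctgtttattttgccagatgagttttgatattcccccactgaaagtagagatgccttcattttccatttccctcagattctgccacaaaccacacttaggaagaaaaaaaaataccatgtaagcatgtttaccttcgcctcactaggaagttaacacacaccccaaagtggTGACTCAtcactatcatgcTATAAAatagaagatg
Cemip: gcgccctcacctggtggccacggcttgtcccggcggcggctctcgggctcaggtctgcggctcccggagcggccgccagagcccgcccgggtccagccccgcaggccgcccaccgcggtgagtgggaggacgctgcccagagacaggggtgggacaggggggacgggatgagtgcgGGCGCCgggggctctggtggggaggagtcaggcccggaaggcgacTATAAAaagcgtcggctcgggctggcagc
An AP-1 motif began 63 bases before the start in Mmp10 and 35 bases before it in Mmp13, and Cemip had none in this window. TGANTCA was present in 8 of the 33 called higher genes with a promoter in the table and in 6.75% of all promoters. For TATAAA the values were 6 of 33 and 12.4%, and for GGCGCC 6 of 33 and 9.59%. A gene counted if any of its promoters matched, whereas the percentages are per promoter, so they cannot be compared. Enrichment of a motif was not tested. The levels of transcripts encoding AP-1 subunits are given with the immediate early genes.

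Lama5 (chr2:180176373-180225859, minus strand), the laminin alpha chain of epithelial basement membranes, was at 418 and 485 in the GWTT libraries and 5329.7 and 6650.5 in the GA3T libraries and rose by 3.72 ± 0.16 (limma adjusted p = 0.0348). It was the limma call of 11 laminins tested, and DESeq2 called 4 higher and 0 lower. Nid2, which links laminin to collagen IV, was at 578 and 644 in the GWTT libraries and 2565 and 3902 in the GA3T libraries and rose by 2.37 ± 0.22 (limma adjusted p = 0.0496). Col18a1, a basement membrane collagen, was at 9305 and 7565 in the GWTT libraries and 38698 and 54792 in the GA3T libraries and rose by 2.46 ± 0.24 (limma adjusted p = 0.0496). In each gene the lower knockout library was more than 3 times the higher control.

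Of 38 collagens tested, limma called 3 higher and 0 lower, DESeq2 14 higher and 2 lower, and the median was 0.86. Beside Col18a1 these were Col22a1, of tissue junctions (79.4 and 64.6 in the GWTT libraries and 997 and 1359.7 in the GA3T libraries, a rise of 4.0 ± 0.23, limma adjusted p = 0.0348), and Col6a4 (672 and 598 in the GWTT libraries and 4266 and 5664 in the GA3T libraries, 2.95 ± 0.17, limma adjusted p = 0.0348). The fibrillar collagen Col1a1 was at 120503 and 107703 in the GWTT libraries and 203796 and 222080.0 in the GA3T libraries, below the fold threshold (0.90 ± 0.44). Col14a1, a collagen of deeper fibroblasts, was at 53726 and 58361 in the GWTT libraries and 33008 and 15863 in the GA3T libraries and was called lower by DESeq2 (adjusted p = 0.00962, limma 0.172). Over the list 24 collagens lay higher in both knockout libraries, 5 lower and 9 overlapped. Of all genes tested 28.8% lay higher in this way and 27.5% lower.

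Of 36 other matrix proteins limma called 4 higher and 0 lower, DESeq2 6 higher and 4 lower, and the median was 0.30. Fbn2, the fibrillin of developing microfibrils, was at 232 and 147 in the GWTT libraries and 3042 and 4167 in the GA3T libraries and rose by 4.26 ± 0.28 (limma adjusted p = 0.0445). Elastin (Eln) was at 7005 and 5921 in the GWTT libraries and 18755 and 19662 in the GA3T libraries and rose by 1.58 ± 0.15, and the proteoglycan Gpc1 was at 1249 and 1109 in the GWTT libraries and 3541 and 4293 in the GA3T libraries and rose by 1.73 ± 0.14 (limma adjusted p = 0.0496 and 0.0489). Nid2 was the fourth. Decorin (Dcn), a small proteoglycan of deeper connective tissue, was at 199582 and 188124 in the GWTT libraries and 122006 and 69078 in the GA3T libraries and Fbln1, a fibulin, at 39548 and 45730.0 in the GWTT libraries and 21735 and 13885 in the GA3T libraries, and DESeq2 called both lower with limma adjusted p-values of 0.273 and 0.113.

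Among the 53 genes that rose, Smoc1, Trpa1 and Lcn2 were also near the top by size. Smoc1, a secreted calcium-binding matricellular protein, was at 109.9 and 122 in the GWTT libraries and 1618 and 3065 in the GA3T libraries and rose by 4.26 ± 0.32 (limma adjusted p = 0.0489). Trpa1, a cation channel gated by irritants, was at 75.1 and 49.6 in the GWTT libraries and 1543 and 2066 in the GA3T libraries and rose by 4.85 ± 0.27 (limma adjusted p = 0.0348). Lcn2, the siderophore binder lipocalin 2, was at 8.70 and 9.70 in the GWTT libraries and 366 and 686 in the GA3T libraries and rose by 5.62 ± 0.42 (limma adjusted p = 0.0489). Both knockout libraries of each exceeded both controls by more than 10 times. Lcn2 had a control mean below the filter of 10, so it passed only through the GA3T libraries and could only lie higher. Slc1a6, a glutamate transporter, was at 14.1 and 11.9 in the GWTT libraries and 174 and 232 in the GA3T libraries and rose by 3.86 ± 0.37 (limma adjusted p = 0.0496).

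Of 17 interleukin genes tested, limma called 2 higher and 0 lower and DESeq2 5 higher and 0 lower. Of the 17, 7 lay higher in both knockout libraries (28.8% of all genes tested did), 6 lower (27.5%) and 4 overlapped. The median log2 fold change was -0.32, but it did not keep its size or sign, with -0.32 without GA3T replicate 1 and 0.0040 without GWTT replicate 2, and 0.15 within each replicate pair. Il11, a gp130 cytokine made by stromal cells, was at 44.6 and 40.9 in the GWTT libraries and 449 and 666 in the GA3T libraries and rose by 3.65 ± 0.28 (limma adjusted p = 0.0489). Il1b, the inflammatory cytokine interleukin-1 beta, was at 229.5 and 159 in the GWTT libraries and 1037 and 1313 in the GA3T libraries and rose by 2.60 ± 0.24 (limma adjusted p = 0.0496). Both knockout libraries of each were at least 4 times above both controls. Il1b is also made abundantly by macrophages and neutrophils, whose summed markers were also higher in both knockout libraries.

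Il1a was at 17.4 and 8.62 in the GWTT libraries and 132 and 256 in the GA3T libraries and Il17a at 8.70 and 3.23 in the GWTT libraries and 21 and 93.4 in the GA3T libraries. Both were called higher by DESeq2 (adjusted p = 1.09e-07 and 0.036) and not by limma (0.0728 and 0.192), and the Il17a values rested mainly on GA3T replicate 2. Il17a passed the filter only through the GA3T libraries, so it could only lie higher and adds no support to the list's counts. Il6 was lower in both knockout libraries, at 2091 and 1252 in the GWTT libraries and 1078 and 436 in the GA3T libraries, without passing either test (limma adjusted p = 0.237). Il22 was at 111 and 23.7 in the GWTT libraries and 15.0 and 26.4 in the GA3T libraries with overlapping groups, Il17f at 21.8 and 9.70 in the GWTT libraries and 5.01 and 8.27 in the GA3T libraries, and Il13 had a mean below the filter. The receptor gene Il1r1 was at 2165 and 2190.3 in the GWTT libraries and 4926 and 5855 in the GA3T libraries and rose by 1.30 ± 0.13 (limma adjusted p = 0.0496), the only limma call of 30 interleukin receptors.

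DESeq2 called 6 of the interleukin receptors higher and 2 lower. Il1rl1, the receptor of interleukin-33, was at 164 and 74.3 in the GWTT libraries and 1266 and 2862 in the GA3T libraries (4.09 ± 0.54, limma adjusted p = 0.0701). Il31ra was at 123 and 79.7 in the GWTT libraries and 12.0 and 11.6 in the GA3T libraries (-2.97 ± 0.45, limma adjusted p = 0.0735). The knockout libraries were thus far above the controls for the former and far below them for the latter, and DESeq2 called both. Il9r, at 66.4 and 34.5 in the GWTT libraries and 16 and 13.2 in the GA3T libraries, was lower in both knockout libraries without a call by either tool.

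Of 24 chemokine ligands limma called 1 higher (Cxcl14) and 0 lower and DESeq2 8 higher and 2 lower. Of the 24, 13 lay higher in both knockout libraries (28.8% of all genes tested did), 4 lower (27.5%) and 7 overlapped. The median was 1.09, and it was 0.67 without GA3T replicate 2 and 1.39 without GA3T replicate 1. The neutrophil attractant Cxcl5 was at 16.3 and 72.2 in the GWTT libraries and 1212 and 1984 in the GA3T libraries (5.45 ± 0.72, limma adjusted p = 0.0704), and the eosinophil attractant Ccl11 at 11364 and 10427 in the GWTT libraries and 6203 and 3672 in the GA3T libraries (-1.19 ± 0.27, limma adjusted p = 0.120). DESeq2 called the former higher and the latter lower. Growth factors and activins followed the same division between the tools. Of 29 growth factors limma called Nrg1 alone and DESeq2 called 8 higher and 1 lower, among them Hgf (1117 and 1227 in the GWTT libraries and 2470.0 and 3238 in the GA3T libraries) and Igf1 (5005 and 4782 in the GWTT libraries and 9959 and 13394 in the GA3T libraries), with limma adjusted p-values of 0.0682 and 0.0728.

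Of 17 TGF-beta and activin genes limma called 0 (6 at an unadjusted p) and DESeq2 4 higher and 2 lower. Inhba, the subunit of activin A, was at 111 and 79.7 in the GWTT libraries and 1151 and 2649.9 in the GA3T libraries (4.20 ± 0.43) and narrowly missed the limma threshold (adjusted p = 0.0520). Tgfb1 was at 666 and 533 in the GWTT libraries and 1011 and 1514 in the GA3T libraries (1.05 ± 0.24, limma adjusted p = 0.120). Both knockout libraries were above both controls for each gene. Of 10 Wnt ligands limma called Wnt5a alone, and DESeq2 called Wnt5a higher and Wnt2b, a canonical ligand, lower (9499 and 9839.6 in the GWTT libraries and 5063 and 2951 in the GA3T libraries, limma adjusted p = 0.103). The Wnt antagonist gene Draxin was at 3.26 and 11.9 in the GWTT libraries and 328 and 463 in the GA3T libraries (5.72 ± 0.63, limma adjusted p = 0.0596) and Frzb at 103 and 144 in the GWTT libraries and 645 and 1179 in the GA3T libraries (2.83 ± 0.35, limma adjusted p = 0.0664), and DESeq2 called both higher. Draxin passed the filter only through the GA3T libraries, so it could only lie higher.

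2 genes fell. Sirt1, a nuclear deacetylase, was at 1151 and 1055 in the GWTT libraries and 462 and 415 in the GA3T libraries and fell by 1.33 on the log2 scale (SE 0.13, limma adjusted p = 0.0496). Igkv8-28, an immunoglobulin light chain segment made by plasma cells, was at 720.2 and 431 in the GWTT libraries and 15.0 and 21.5 in the GA3T libraries and fell by 4.88 (SE 0.38, limma adjusted p = 0.0489). Both knockout libraries were below both controls in each. Immunoglobulin segments differ between individual mice by clone, and reads of similar segments can be shared among them.

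Immediate early and heat shock genes lay mostly lower. Of 20 tested, 14 lay lower in both knockout libraries and 0 higher, beside 27.5% and 28.8% of all genes tested. limma called 0 (6 at an unadjusted p), DESeq2 called 7 lower, and the median was -0.74. Egr1 was at 75950.3 and 64244 in the GWTT libraries and 31809.9 and 23919 in the GA3T libraries (-1.34 ± 0.27, limma adjusted p = 0.101), and Fos, an AP-1 subunit, at 37828 and 32333 in the GWTT libraries and 22489 and 17393 in the GA3T libraries (-0.82 ± 0.23, limma adjusted p = 0.151). The heat shock gene Hspa1b was at 12716 and 9227 in the GWTT libraries and 5678 and 5319 in the GA3T libraries (-0.98 ± 0.19, limma adjusted p = 0.0973). The controls were above the knockout libraries for all 3.

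Epithelial transcripts were kept apart from the stromal ones. A gene was counted as epithelial-leaning where its mean CPM (recovered reads scaled to the library total) in sorted Muc2-mCherry cells of control proximal colon was at least 1 and at least 4 times that in the GWTT proximal libraries. This held for 1719 genes tested, of which limma called 3 higher and 0 lower (Lpcat2, Trp53i11 and Efnb1) and DESeq2 157 higher and 6 lower. Their median log2 fold change was 0.71, and because the definition uses the GWTT values, this is a description. The median was 0.82 between the replicate 1 libraries and 0.39 between the replicate 2 libraries. The 25 epithelial markers summed to 689 normalized counts in GWTT replicate 1, 27352 in GWTT replicate 2, 21600 in GA3T replicate 1 and 31033 in GA3T replicate 2, so GWTT replicate 1 alone was low and the keratin gene Krt8 ran with it, at 75.1 and 3946 in the GWTT libraries and 3631 and 5419.7 in the GA3T libraries.

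Trp53i11 was at 269.8 and 367 in the GWTT libraries and 1335 and 1497 in the GA3T libraries and rose by 2.16 ± 0.19, the acyltransferase gene Lpcat2 at 89.2 and 77.6 in the GWTT libraries and 366 and 397 in the GA3T libraries (2.18 ± 0.21) and the ephrin gene Efnb1 at 329 and 372 in the GWTT libraries and 928 and 989 in the GA3T libraries (1.45 ± 0.14), with limma adjusted p-values of 0.0489, 0.0496 and 0.0496. Each of the 3 was higher in both knockout libraries than in both controls. A gene as unequal between the GWTT libraries as the epithelial marker sum could hardly pass this test, so close controls in called genes say nothing of an epithelial share. In Muc2-mCherry cells of Alk3 knockout mice (GA3M2), Lcn2 was at 3.96 CPM beside 29.8 CPM in GA3T cells, and Mmp10 at 1.20 beside 133 CPM. Of the 31 genes that rose and had a value in the Muc2-mCherry cells, 27 had a lower CPM in GA3M2 than in GA3T, so not all did. These genes were picked for high GA3T values, and the CPM values come from separate sorts and tables, without a test. Muc2-mCherry cells are goblet cells, so other epithelial cells and leukocytes were not compared.

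Of 54 G2/M genes tested, limma called 0 (30 at an unadjusted p), DESeq2 23 higher and 0 lower, and the median was 1.32. Of the 54, 41 lay higher in both knockout libraries (28.8% of all genes tested did), 6 lower (27.5%) and 7 overlapped. Cdk1, the kinase that drives mitosis, was at 19.6 and 28.0 in the GWTT libraries and 171 and 217 in the GA3T libraries (2.99 ± 0.36, limma adjusted p = 0.0648), and Mki67 at 269.8 and 391 in the GWTT libraries and 704 and 926 in the GA3T libraries (1.31 ± 0.25, limma adjusted p = 0.0936). For each the groups did not overlap. Of the 54 genes 42 were epithelial-leaning, among them all 23 that DESeq2 called. This class itself takes in genes low in GWTT, so no comparison of fold changes between the 42 and the other 12 was drawn. A dividing cell of any type expresses these genes, and the part of epithelial cells in the result was not tested. Of 41 S phase genes limma called 0 (7 at an unadjusted p), DESeq2 called 3 higher, and the median was -0.04 (-0.0067 without GWTT replicate 2 and 0.07 without GWTT replicate 1).

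Myeloid markers were called higher by DESeq2, and pan-leukocyte and plasma cell markers were not. Of 13 macrophage and monocyte markers limma called 0 (11 at an unadjusted p), DESeq2 called 11 higher and 0 lower, and the median was 1.93. Their sums were 3868 and 6184 in GWTT and 16003 and 28262 in GA3T. Csf1r, the receptor that macrophages depend on, was at 457 and 803 in the GWTT libraries and 2064 and 2977 in the GA3T libraries (2.03 ± 0.32, limma adjusted p = 0.0767), and C1qa at 382 and 530.1 in the GWTT libraries and 1744 and 2519 in the GA3T libraries (2.22 ± 0.25, limma adjusted p = 0.0598). Both groups held the transcripts and the groups did not overlap.

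Of 7 neutrophil markers tested limma called 0 (5 at an unadjusted p) and DESeq2 5 higher, with sums of 89.2 and 251 in GWTT and 938 and 2042 in GA3T. Ly6g, a neutrophil surface protein, was at 0 in both GWTT libraries and at 49.1 and 205 in the GA3T libraries, so it passed the filter only through the latter. The pan-leukocyte gene Ptprc (CD45) was at 1082 and 1120.5 in the GWTT libraries and 741 and 1059 in the GA3T libraries, below the controls in both knockout libraries, and the 5 pan-leukocyte markers had a median of 0.04 (-0.17 without GA3T replicate 2 and 0.23 without GWTT replicate 2). B and plasma cell marker sums were 27867 and 48641 in GWTT and 15985 and 16451 in GA3T, mostly Jchain (27288 and 47543 in the GWTT libraries and 15474 and 15932 in the GA3T libraries). The macrophage and neutrophil sums moved with Il1b, Cxcl5 and Lcn2, and their part in those results was not tested.

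**Figure D4:**
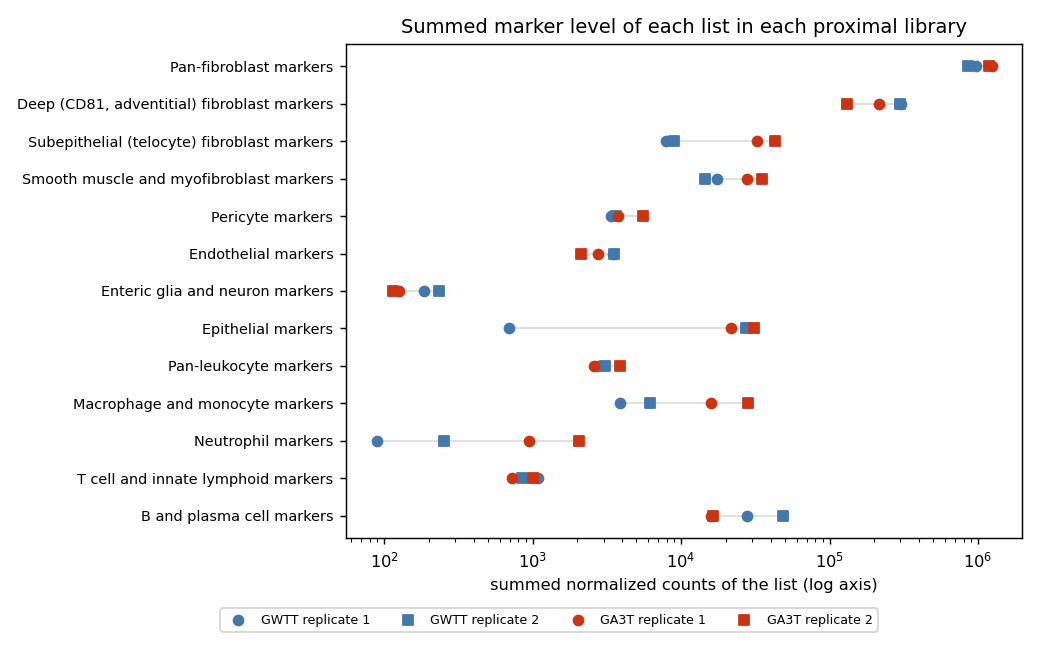
Summed normalized counts (log axis) of each cell type marker list in each proximal library, with GWTT in blue, GA3T in red, circles for replicate 1 and squares for replicate 2. The epithelial sum of GWTT replicate 1 stands alone at 689, the macrophage and neutrophil sums are higher in both GA3T libraries, and the subepithelial sums are 7869 and 8897 in GWTT against 32252 and 42760 in GA3T.

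The same contrast in the distal colon, in 4 other libraries of 1 separately normalized table, gave the same direction for most called genes with smaller changes. In these distal libraries alone limma called 0 of 15414 genes tested (1197 at an unadjusted p, lowest adjusted p 0.0539). Of the 53 genes that rose in the proximal colon, 48 lay higher in both distal GA3T libraries than in both distal GWTT libraries, 0 lay lower and 5 overlapped, whereas 27.5% of all genes tested in the distal table lay higher in this way and 26.8% lower. The median log2 fold change of the 53 was 2.27 in the proximal libraries and 1.35 in the distal ones, where 35 reached 1. These genes were picked by their proximal values, which alone favours the larger proximal median. Of the distal libraries GA3T replicate 1 was male and the other 3 were female by Xist and Y-linked transcripts.

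The difference between segments was tested by a limma interaction over the 8 libraries, which called 0 of 15301 genes (lowest adjusted p 0.0995). At an unadjusted p under 0.05, without a fold threshold, there were 1047 genes. edgeR called 0, with 1046 genes by the same count. The interaction treated the 8 libraries as independent, and the sources do not state whether segments of the same mice were used. Among the called genes Foxl1, Bmp5 and Lama5 shared the lowest adjusted p. Foxl1 was at 1131 and 1125 in distal GWTT and 1219.8 and 1039.8 in distal GA3T, which overlapped, and the proximal effect exceeded the distal one by 1.81 ± 0.18 (limma adjusted p = 0.0995). Bmp5 was at 4824 and 4547 in distal GWTT and 5465 and 5217 in distal GA3T, a difference of effects of 1.31 ± 0.14 (limma adjusted p = 0.0995), and Lama5 at 2749 and 2438 in distal GWTT and 6055 and 6928 in distal GA3T, a difference of 2.40 ± 0.21 (limma adjusted p = 0.0995). Cemip, Mmp10 and Il11 kept large distal fold changes of 5.03, 4.11 and 3.83, and Id2 and Id4 of -1.12 and -1.88. Some list medians were close to 0 in the distal libraries, without a test. Subepithelial markers had 1.65 in the proximal and 0.14 in the distal libraries, and smooth muscle markers 0.57 and -0.12. Immediate early and heat shock genes had -0.74 and 0.05. BMP targets had -0.90 and -0.89, and G2/M genes 1.32 and 1.59.

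Loss of Smad4 in the same Cre line (GS4T, proximal colon) was compared with the same GWTT control libraries in another table, so the values share their controls and are set side by side without a test. Bmp7 had a log2 fold change of 2.62 with Smad4 loss beside 3.35 with Alk3 loss, and Cemip 5.89 beside 7.15. Id2 had -1.57 beside -1.5 and Id4 -2.67 beside -1.94. The matrix genes Papln and Fbln7 and the calcium channel gene Ryr3 had -0.39, 0.46 and -0.0017 with Smad4 loss beside 1.79, 1.51 and 2.27 with Alk3 loss. The antagonist gene Frzb had 4.62 beside 2.83.

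**Figure D5:**
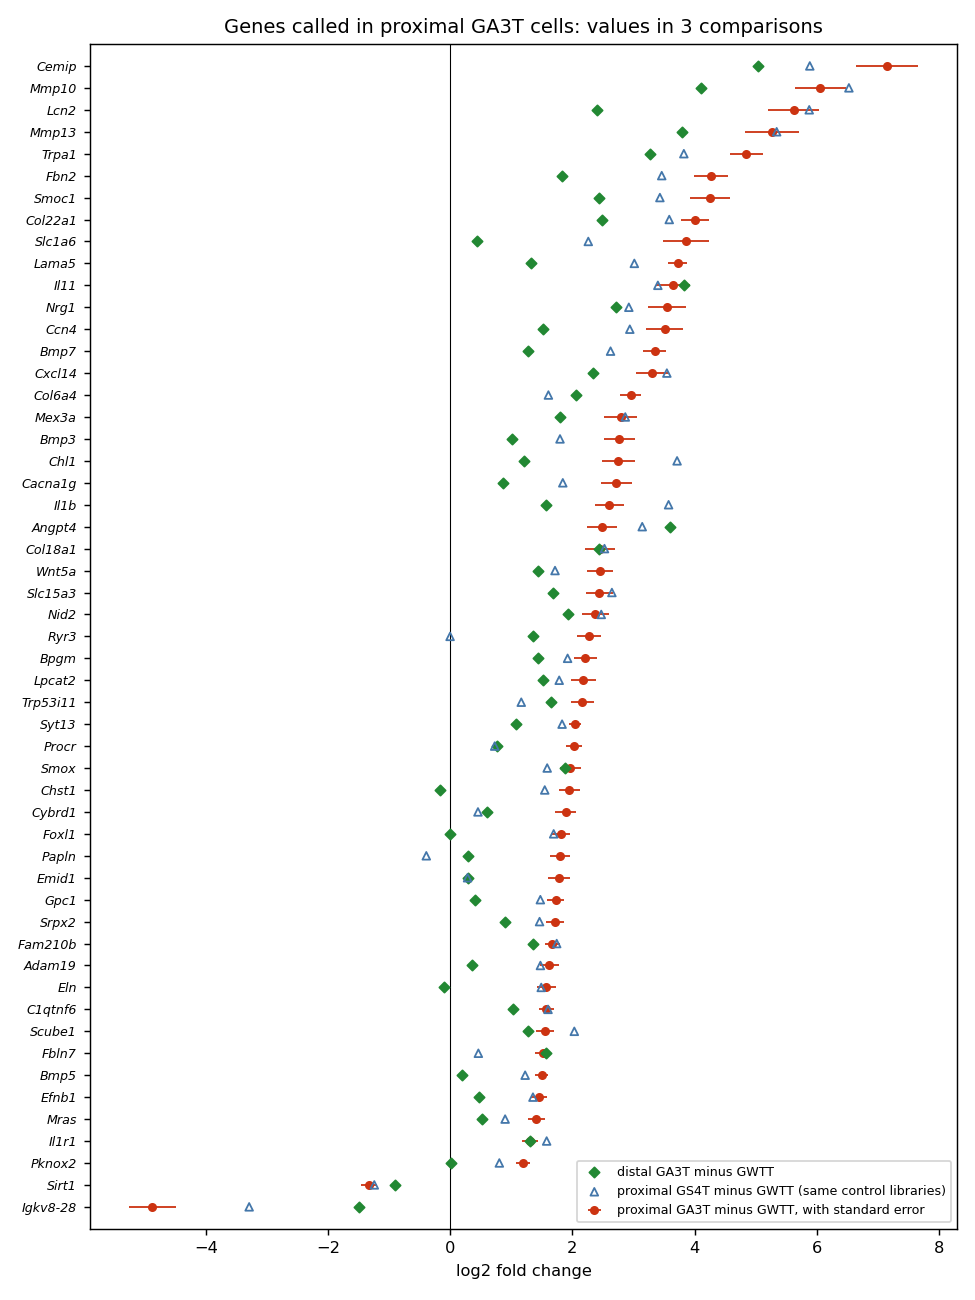
Log2 fold change (horizontal axis) of the 53 called genes with a proper name, with the proximal Alk3 knockout effect and its standard error as red circles, the distal Alk3 effect as green diamonds and the proximal Smad4 knockout effect, which shares the control libraries, as open blue triangles. Most green diamonds lie between 0 and the red circle, Il11, Angpt4 and Fbln7 lie beyond it, and Foxl1, Eln, Chst1 and Pknox2 lie close to 0.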

How the data were processed

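RNA from tdTomato+ cells was sequenced with an RNA-seq kit based on SMARTer chemistry. The authors mapped reads uniquely to mm10 with STAR (version 2.5.3) and deposited DESeq2-normalized gene counts (version 1.28.1), read here as a signal in which each library of a table was divided by 1 size factor. Dividing each column by its smallest step gave back whole read counts for all values within a tolerance of 0.1 read. The steps of 3 columns (GA3M2-Proximal replicate 1, GA3T-Proximal replicate 1 and GS4T-Proximal replicate 2) were close to 1.00. Antisense and overlapping genes were not separated by strand as far as the sources state. Each table had been normalized by itself, so tests stayed within a table except for the interaction, in which each table supplies its own controls.

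The main test was limma (version 3.58.1, with trend, two-sided) on log2(normalized count + 1) for genes with a mean of at least 10, with Benjamini-Hochberg adjustment over all genes tested, in R (version 4.3.3). edgeR (version 4.0.16) and DESeq2 (version 1.42.0) were run on the recovered reads. All were checked on simulated counts with known changes. The study's methods used an unadjusted p with DESeq2, and an adjusted p was used here. Gene names were those of the table, 15796 of 15973 symbols matched 1 gene in GENCODE M21, 19 rows held spreadsheet dates in place of names, 2 of them among the called genes, and coordinates are mm10.

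Genes were named by rule: Bmpr1a, Gli1 and Smad4, genes that the paper names for sorted Gli1+ cells, the 12 largest changes in each direction among called genes with a mean of at least 100, non-overlapping groups and a proper name that were neither epithelial-leaning nor on a leukocyte or epithelial marker list, the 5 largest epithelial-leaning changes in each direction, and of each list the called members and those with the lowest adjusted p. Other genes given with values were chosen after their values were seen. An item that the rule would name is not reported here. The interleukin list was drawn by name, and 4 receptors were moved out of it to the receptor list. The lists and comparisons were chosen with earlier results of these data known. Alternatives were another pseudocount, filter, scaling, threshold, tool, a replicate block and leaving out each library. SE is the limma standard error, and counts are per gene and not per length.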

Additional observations from a re-analysis of the deposited data

How the results depend on the processing

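With 2 libraries per group the number of calls depended strongly on the setting, and no named gene called by limma as reported changed direction under any of the alternatives run. Of the named genes without a call, Gli1 had log2 fold changes of -4.90 to 0.28 when 1 library was left out, positive without GA3T replicate 2, and Smad4 of -0.13 to 0.11, positive without GA3T replicate 1 (0.11) or GWTT replicate 2 (0.02). limma called 55 genes (53 higher) as reported. It called 6 genes (6 higher) with a pseudocount of 0.1, 87 (83 higher) with a pseudocount of 10, and 1451 (931 higher) at an unadjusted p under 0.05. edgeR's quasi-likelihood test called 0 genes (0 higher), DESeq2 969 (676 higher), and, chosen after seeing the data, an unadjusted p under 0.05 gave 1497 (950 higher) with DESeq2 and 1453 (923 higher) with edgeR. Leaving out 1 library gave 0 to 234 called genes and 0 to 118 higher genes. The single call without GA3T replicate 2 was Ighv1-81, lower, which was at 4023 and 3722 in the GWTT libraries and 0 and 3693 in the GA3T libraries. A filter of 50, no filter and upper-quartile rescaling gave 55 to 63 calls.

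The replicate numbers of the proximal labels pair male with male and female with female libraries. In the distal colon replicate 1 was female in GWTT and male in GA3T. The labels do not state that a number marks a shared litter or day, and with 2 proximal pairs the correlation of the deviations was 0.107 over 15346 genes. With the replicate block limma called 253 genes (209 higher), 82.6% higher against 96.4% without it, and all 55 called genes were among them. The block changed none of the calls of the segment interaction, which stayed at 0. That interaction had 1047 genes at an unadjusted p under 0.05, and leaving out 1 library left it at 0, with lowest adjusted p-values of 0.0707 to 0.777. A threshold of 10 in place of 4 times left 893 epithelial-leaning genes in place of 1719.

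Of 817 values of 55 named genes under the alternatives, 604 kept their direction and side of the threshold, 149 lost the call, 61 gained it and 3 changed sign. Of 644 list medians under the alternatives, 35 moved by more than the spread between library pairs. Depth was at least 16182827 reads in all 4 libraries, and genes at a few reads, such as Il13, were not testable.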

Other observations

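Lists outside the comparisons above gave few limma calls. Of all genes tested limma called 0.358%, and DESeq2 called 4.41% higher and 1.91% lower. Of 59 axon guidance genes limma called Efnb1 alone and DESeq2 called 9 higher and 2 lower, with a median log2 fold change of 0.25, which was 0.02 without GWTT replicate 1 and 0.29 without GWTT replicate 2. Efnb2, an ephrin, was at 433 and 449 in the GWTT libraries and 1485 and 2946 in the GA3T libraries and Epha4, an ephrin receptor, at 67.4 and 130.4 in the GWTT libraries and 379 and 543 in the GA3T libraries, with limma adjusted p-values of 0.0735 and 0.0843, and DESeq2 called both higher. Of 64 TRP and voltage-gated channel genes limma called Trpa1 and the calcium channel gene Cacna1g (446 and 332 in the GWTT libraries and 2061 and 3126 in the GA3T libraries, a rise of 2.72 ± 0.26, adjusted p = 0.0496), and DESeq2 called 10 higher and 4 lower. The median of the channel genes was 0.02 (-0.01 without GWTT replicate 1 and 0.16 without GWTT replicate 2).

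Of 263 solute carriers limma called Slc1a6 and Slc15a3, a peptide and histidine transporter, at 149 and 167 in the GWTT libraries and 723 and 1027 in the GA3T libraries (a rise of 2.44 ± 0.22, adjusted p = 0.0496), and DESeq2 called 14 higher and 6 lower. These DESeq2 counts lay near the shares of all genes tested, 4.41% higher and 1.91% lower. Of 29 integrins limma called 0 (7 at an unadjusted p, 0 by edgeR) and DESeq2 6 higher. Of 30 Hox genes tested, which record position along the gut, limma, edgeR and DESeq2 each called 0 (3 at an unadjusted p with limma), and the median was 0.19 (0.08 without GA3T replicate 2 and 0.25 without GA3T replicate 1). Of all 15346 genes tested, 1451 passed the same unadjusted cut, so the 3 Hox genes lay near the overall share.

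Of 15 prostaglandin genes limma called 0 (4 at an unadjusted p, 0 by edgeR) and DESeq2 2 higher and 1 lower. Hpgd, which degrades prostaglandins, was at 3178 and 2601 in the GWTT libraries and 1213 and 399 in the GA3T libraries (-2.04 ± 0.53, limma adjusted p = 0.139). Both knockout libraries were below both controls, with GA3T replicate 2 the lowest. Ptgs2, the inducible cyclooxygenase, was at 4119 and 2717 in the GWTT libraries and 3622 and 4458 in the GA3T libraries with overlapping groups. Of 14 hyaluronan genes Cemip was the limma call, the synthase gene Has2 was called higher by DESeq2 at 318 and 297 in the GWTT libraries and 593 and 819 in the GA3T libraries, and Has1 was at 9606 and 5409 in the GWTT libraries and 3899 and 1549.8 in the GA3T libraries (limma adjusted p = 0.189). Cemip passed the filter only through the GA3T libraries, so its call adds no support to the list's counts.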
